A study of Mus musculus with 18 samples.

Results

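The comparison described here is the loss of both isoforms of the progesterone receptor (PGR) in mouse granulosa cells, which surround the oocyte inside the follicle. It was chosen by strain and genotype label and covers 6 of the 18 libraries of the series, 3 labelled knockout (KO) and 3 labelled wildtype (WT) of the PRKO strain. PRKO mice carry the Pgr tm1Bwo allele in all tissues, and the WT libraries came from WT mice of the same strain. Mice of both genotypes were 21 to 27 days old, received 5 IU equine chorionic gonadotropin (eCG) and 46 h later 5 IU human chorionic gonadotropin (hCG), and granulosa cells were released by puncture of follicles 8 h after hCG. The cells of 3 mice were pooled for a library. The other 12 libraries were KO and WT groups of the PRAKO strain, which lacks PGR-A, and of the PRBKO strain, which lacks PGR-B, and they serve below only to show where PRKO differs.

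PGR is a nuclear receptor that binds progesterone and then DNA, and the isoforms PGR-A and PGR-B are made from separate start sites of the same gene. In granulosa cells of large follicles the luteinizing hormone surge, for which hCG stands in, induces Pgr within hours. Mice without PGR form preovulatory follicles that do not rupture. The receptor recognises a palindromic element shared with the glucocorticoid, mineralocorticoid and androgen receptors, and it is also known to act through other factors bound at promoters, such as AP-1 and SP1.

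Levels are in TPM, the share of a transcript among all transcripts after correction for its length, summed over the transcripts of a gene. Between 13458 and 13959 genes reached 1 TPM in a PRKO library, and TPM keeps no read depth, so no counting error can be given. Protein-coding genes held 39.3%, 39.5% and 44.5% of TPM in the WT libraries and 39.1%, 37.3% and 38.2% in the KO libraries, most of the rest being Rn7s2, a 7SL RNA, at 42.8% to 47.8%. The first principal component, with 41.7% of the variance, separated KO from WT. The second, with 22.9%, put WT 1, WT 2 and KO 1 on one side and WT 3, KO 2 and KO 3 on the other, so libraries stood apart across the genotype labels. Malat1, a nuclear non-coding RNA, followed the same division at 3133, 3131 and 3575 TPM on the first side and 1900, 1940 and 2152 TPM on the second. Calls lost when these sides were fitted as a block are named with the results.

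Pgr, the targeted gene (chromosome 9, 8898900 to 8968611, GRCm38.p6), was read first. Pgr levels of WT were 2.01, 2.09 and 1.73 TPM, those of KO were 1.93, 1.49 and 2.67 TPM, and the groups overlapped (log2 fold change 0.02 ± 0.19 SE, limma adjusted p = 0.957). Its transcript total did not fall, and a total over a targeted allele does not show whether receptor protein is made. Genotypes are used below as the sample labels give them. Of 129 genes tested within 20 Mb of the start of Pgr, 1 was called (0.775%, against 2.14% of all genes tested), which was Jam3.

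A gene was called where the limma adjusted p was at most 0.01 and the log2 fold change of KO against WT was at least 1 in size. Of 13910 genes tested, 297 were called (2.14%), of which 253 fell (1.82%) and 44 rose (0.316%). The groups did not overlap for any of the 297, and they did not overlap for 31.9% of all genes tested. Among the called genes 275 were protein coding, 236 that fell and 39 that rose. As deposited the falls held most of the deepest changes. The median log2 fold change of the falls was −1.47, with 55 past 2 in size and 7 past 3. The median of the rises was 1.30, with 3 past 2 and 0 past 3. In level, 31 of the 236 falls and 2 of the 39 rises reached 100 TPM in their higher group. Together the 236 genes that fell held 3.08% ± 0.0641 of protein-coding TPM in WT and 1.12% ± 0.0408 in KO (mean ± SD, n = 3). The 39 that rose held 0.122% ± 0.00364 in WT and 0.411% ± 0.0332 in KO. These shares describe genes chosen for their change and are no test.

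**Figure D1:**
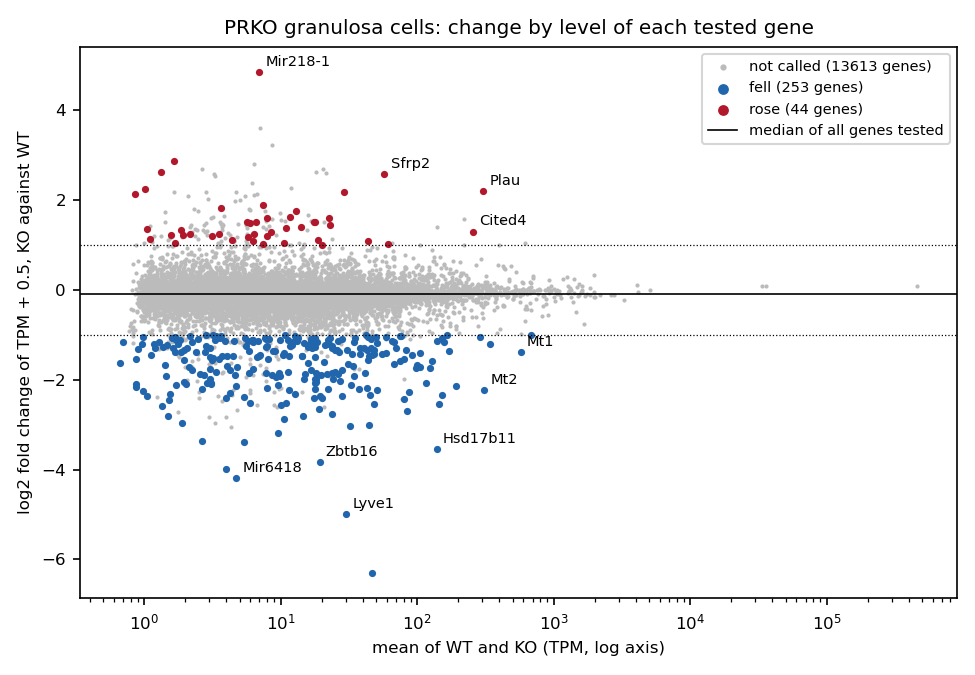
Mean TPM of WT and KO on a log axis against the log2 fold change for each of 13910 genes tested. Blue points are the 253 genes that fell and red points the 44 that rose, the dotted lines mark a log2 fold change of −1 and 1, and the solid line is the median of all genes at −0.10, just below 0.

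Because protein-coding TPM was lower in KO, each library was also rescaled to a fixed protein-coding total. The median log2 fold change of protein-coding genes was −0.10 as deposited and −0.003 after rescaling, and of 12553 genes 299 were then called (2.38%), 234 that fell (1.86%) and 65 that rose (0.518%). So falls made up 85.2% of calls as deposited and 78.3% after rescaling. On both scales 260 genes were called, 221 that fell and 39 that rose. After rescaling the median of these falls was −1.54 and that of these rises 1.53. Asking for a call on both scales left out 26 rises called after rescaling only, so these medians are partly set by that choice. All 15 genes called as deposited only were falls with log2 fold changes no lower than −1.07, so they lay at the limit. Those with the smallest p were Ammecr1, Ptpre, Smarca1, a chromatin remodeler, and Pawr, a regulator of apoptosis, at −0.95, −0.97, −0.96 and −0.92 after rescaling. Of the 39 called after rescaling only, 26 rose and 13 fell. The 4 with the smallest p were Fhdc1, Pcdh7, a protocadherin, Pla2g7, a secreted phospholipase, and Hk2, a hexokinase, with rises of 1.08, 1.05, 1.14 and 1.06. Within the sides of the second component the direction of the 260 genes was fixed by their choice, since the groups of a called gene did not overlap, and only the sizes are given. KO 1 against WT 1 and 2 gave a median of −1.40 for the falls and 1.43 for the rises, and KO 2 and 3 against WT 3 gave −1.69 and 1.19, beside −0.01 and −0.15 over all genes. With the sides as a block, Avil, Rpp25 and Mir500 lost their calls as deposited and Rnd3 its call after rescaling, at −0.96. Of the named genes 28 lost the call as deposited when one or another library was left out, and Mt3 and Gsta4 lost it without any one of the 6. The other 26 were Ammecr1, Avil, Brinp3, Cited4, Ddit4, Dok6, Efs, Fabp4, Hey1, Mir190a, Mir3067, Mir500, Mir6968, Mmp19, Msc, Pawr, Ptgs1, Rnd3, Rpp25, S100a10, Smarca1, Sprr2f, Stx3, Tac1, Vcan and Zyx. After rescaling 3 did so, Rnd3, S100a10 and Stx3.

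Lyve1, a hyaluronan receptor known as a marker of lymphatic endothelium, had the deepest fall of any protein-coding gene named here. It stood at 49.8, 50.7 and 76.0 TPM in WT and at 1.17, 1.19 and 1.71 TPM in KO (−4.98 ± 0.19 on the log2 scale, with a limma adjusted p of 4.84e-05; errors of fold changes are SE). All WT libraries were far above all KO libraries. The other lymphatic markers did not pass the test, with 1 of 5 tested markers called. The 7 markers summed to 80.1 to 97.7 TPM in WT and 23.3 to 29.1 TPM in KO, but the 6 without Lyve1 summed to 21.7 to 30.4 TPM in WT and 22.1 to 27.4 TPM in KO, and the groups overlapped. In bulk RNA fewer cells of a type and less RNA per cell cannot be told apart.

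Zbtb16, a zinc finger transcription factor that is induced by progestins and glucocorticoids in many cells, stood at 36.1, 38.0 and 35.2 TPM in WT and 3.07, 2.10 and 1.39 TPM in KO (−3.83 ± 0.21). The WT libraries were close together and the KO libraries were all far lower, though above 1 TPM. Hsd17b11, a hydroxysteroid dehydrogenase of lipid droplets, stood at 233, 238 and 299 TPM in WT and 24.7, 24.9 and 16.1 TPM in KO (−3.54 ± 0.19). Cldn1, a claudin of tight junctions, stood at 9.99, 10.7 and 10.1 TPM in WT and 0.459, 0.561 and 0.563 TPM in KO (−3.39 ± 0.10). In each of these genes the highest KO library was well under the lowest WT library.

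Scara5, a scavenger receptor that takes up ferritin, stood at 18.4, 17.4 and 17.1 TPM in WT and 2.06, 1.08 and 1.41 TPM in KO (−3.19 ± 0.17). Gas7, an F-BAR protein that binds actin, stood at 54.4, 55.7 and 62.7 TPM in WT and 8.25, 5.87 and 6.04 TPM in KO (−3.02 ± 0.14). Tbc1d8, of the family of Rab GTPase-activating proteins, stood at 78.8, 80.4 and 77.7 TPM in WT and 11.7, 8.66 and 8.23 TPM in KO (−3.0 ± 0.13). The 3 WT libraries differed little in all of them. The next falls by size were Arl4d, a small GTPase (−2.88 ± 0.23), Sphk1, the kinase that makes sphingosine 1-phosphate (−2.81 ± 0.12), Cited1 (−2.76 ± 0.28), Epas1 (−2.69 ± 0.12), Gpt2, an alanine transaminase (−2.65 ± 0.13), Tmem37 (−2.57 ± 0.19) and Etl4 (−2.54 ± 0.14). They were followed by Nudt9, an ADP-ribose hydrolase (−2.53 ± 0.14), Adam8 (−2.52 ± 0.08), Scg2 (−2.51 ± 0.10), Cxcr4 (−2.43 ± 0.07) and Hopx, a homeodomain protein that does not bind DNA (−2.41 ± 0.24). The KO libraries of Cxcr4, a chemokine receptor, were the most alike, at 24.1, 24.8 and 24.8 TPM against 138, 139 and 128 TPM in WT. WT 3 was the highest library for Lyve1, Hsd17b11, Cited1, Epas1 and Nudt9, which is the library with the highest protein-coding share.

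The rises were led by a WNT modulator and a protease. Sfrp2, a secreted protein that binds WNTs, stood at 15.2, 14.5 and 18.9 TPM in WT and 95.6, 93.5 and 108 TPM in KO (2.58 ± 0.12, limma adjusted p = 7.29e-05). Plau, the urokinase plasminogen activator, stood at 109, 102 and 112 TPM in WT and 582, 400 and 530 TPM in KO (2.21 ± 0.14). Every KO library was above every WT library for both.

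Lrrn3, a membrane protein with leucine-rich repeats, stood at 8.98, 8.61 and 13.2 TPM in WT and 42.3, 43.9 and 57.9 TPM in KO (2.18 ± 0.19). Rprm, which is known to arrest the cell cycle in G2, stood at 2.38, 2.74 and 3.46 TPM in WT and 12.2, 9.66 and 14 TPM in KO (1.89 ± 0.17). Msc, a basic helix-loop-helix repressor, rose by 1.83 ± 0.22 from a WT mean of 1.34 ± 0.474 TPM (SD, n = 3). The remaining rises named by size lay between 1.45 and 1.76, and the levels of most were low in both groups. Among them Egln3, a prolyl hydroxylase of hypoxia-inducible factors, had the smallest SE, at 5.89, 5.37 and 5.17 TPM in WT and 17.8, 18.7 and 17.7 TPM in KO. Others were Rasal1, a GTPase-activating protein for Ras (1.60 ± 0.15), Efs, a docking protein of focal adhesions (1.61 ± 0.21), Ddit4l (1.52 ± 0.14), Olfml2b (1.52 ± 0.13), Avil, which binds actin (1.51 ± 0.21), Brinp3 (1.51 ± 0.17), Hey1 (1.49 ± 0.19), Tac1, the precursor of substance P (1.45 ± 0.17), and Sprr2f (1.76 ± 0.26).

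**Figure D2:**
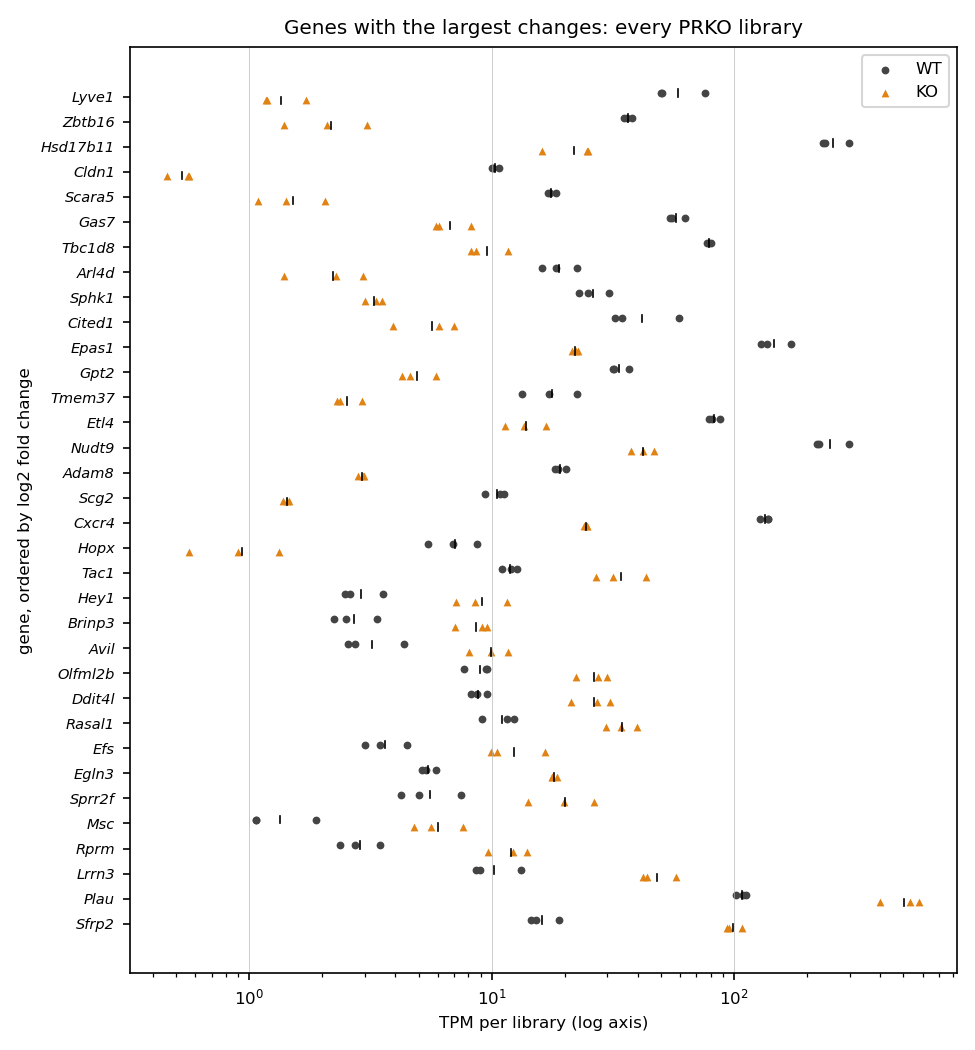
TPM of each PRKO library on a log axis for the protein-coding genes described as the largest falls and the 15 with the largest rises. Circles are the 3 WT libraries, triangles the 3 KO libraries and short vertical lines the group means. In every gene shown all triangles lie on the same side of all circles, as the rule for naming required.

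By amount of transcript the order was different. The metallothioneins, small proteins that bind zinc and copper, lost the most TPM among genes called on both scales. Mt1 stood at 789, 805 and 895 TPM in WT and 330, 308 and 314 TPM in KO (−1.38 ± 0.10), and Mt2 at 475, 483 and 573 TPM in WT and 101, 114 and 109 TPM in KO (−2.23 ± 0.10). All KO libraries were below all WT libraries for both. S100a10, the partner of annexin A2, followed with 405, 417 and 607 TPM in WT and 213, 194 and 202 TPM in KO (−1.20 ± 0.16). Adamts1, a secreted protease that cleaves versican, stood at 307, 294 and 338 TPM in WT and 96.3, 64.4 and 55.5 TPM in KO (−2.15 ± 0.20). Susd3 (−2.33 ± 0.17), Rbbp7, a histone-binding protein (−1.35 ± 0.11), Gas2l1, which links actin to microtubules (−2.07 ± 0.11), and Abhd2, a lipase of the alpha/beta hydrolase fold (−1.74 ± 0.12), fell from WT means of 255, 247, 189 and 192 TPM. Among the rises Cited4, a transcriptional coregulator, gained much, from 137, 129 and 181 TPM to 411, 338 and 345 TPM (1.30 ± 0.15), and Rpp25, a subunit of RNase P, rose by 1.03 ± 0.11.

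Pathway lists were read by how many tested members were called, beside the 2.14% of all genes. The lists were chosen with earlier results of these data known. That choice can raise their counts, so the counts describe the lists and are no test. Among 56 ovulatory transcription regulators 4 fell and 2 rose, and the list median of −0.09 was that of all genes. Besides Zbtb16 the falls were Epas1, a hypoxia-inducible factor, with 129, 137 and 173 TPM in WT and 22.3, 21.4 and 22.7 TPM in KO, Cited1, a coregulator, with 32.2, 34.4 and 59.2 TPM in WT and 7.0, 6.08 and 3.92 TPM in KO, and Pparg, a lipid-sensing nuclear receptor, with 52.4, 56.1 and 51.0 TPM in WT and 12.8, 12 and 10.8 TPM in KO (−2.12 ± 0.09). The rises were Cited4 and the Notch effector Hey1. So 2 members of the CITED family moved in opposite directions. Runx1 had a log2 fold change of −0.07 ± 0.13 (limma adjusted p = 0.816) and Hif1a of 0.00 ± 0.10 (limma adjusted p = 0.986), and neither was called.

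Genes known to respond to progestins or glucocorticoids had the lowest list median, at −0.59 over 20 tested members against −0.10 over all genes. Of these 5 fell and 0 rose, namely Zbtb16, Mt1, Mt2, Tsc22d3 and Ddit4. Tsc22d3, also called GILZ, stood at 63.3, 68.4 and 79.6 TPM in WT and 21.8, 12.6 and 12.5 TPM in KO (−2.18 ± 0.22), and Ddit4, an inhibitor of mTOR signalling, at 94.3, 107 and 157 TPM in WT and 46.0, 45.0 and 45.7 TPM in KO (−1.35 ± 0.18). The same 5 members were counted on the rescaled values. Other familiar members were not called. Fkbp5, a cochaperone of the receptor, had −0.26 ± 0.10 (limma adjusted p = 0.174), Sgk1 −0.24 ± 0.21 (limma adjusted p = 0.542), and Klf9, with 18.7 TPM in WT and 9.13 TPM in KO, lay just under the fold limit at −0.998 ± 0.09. Among 17 tested targets known from the uterus 1 fell, Zbtb16. After rescaling Ltf, lactoferrin, rose by 2.70 ± 0.49 from a rescaled WT mean of 1.61 TPM, which was under 1 TPM as deposited. None of 23 tested chaperones, coregulators and other progesterone receptors was called, by limma at these limits, and their log2 fold changes ran from −0.50 to 0.62.

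**Figure D3:**
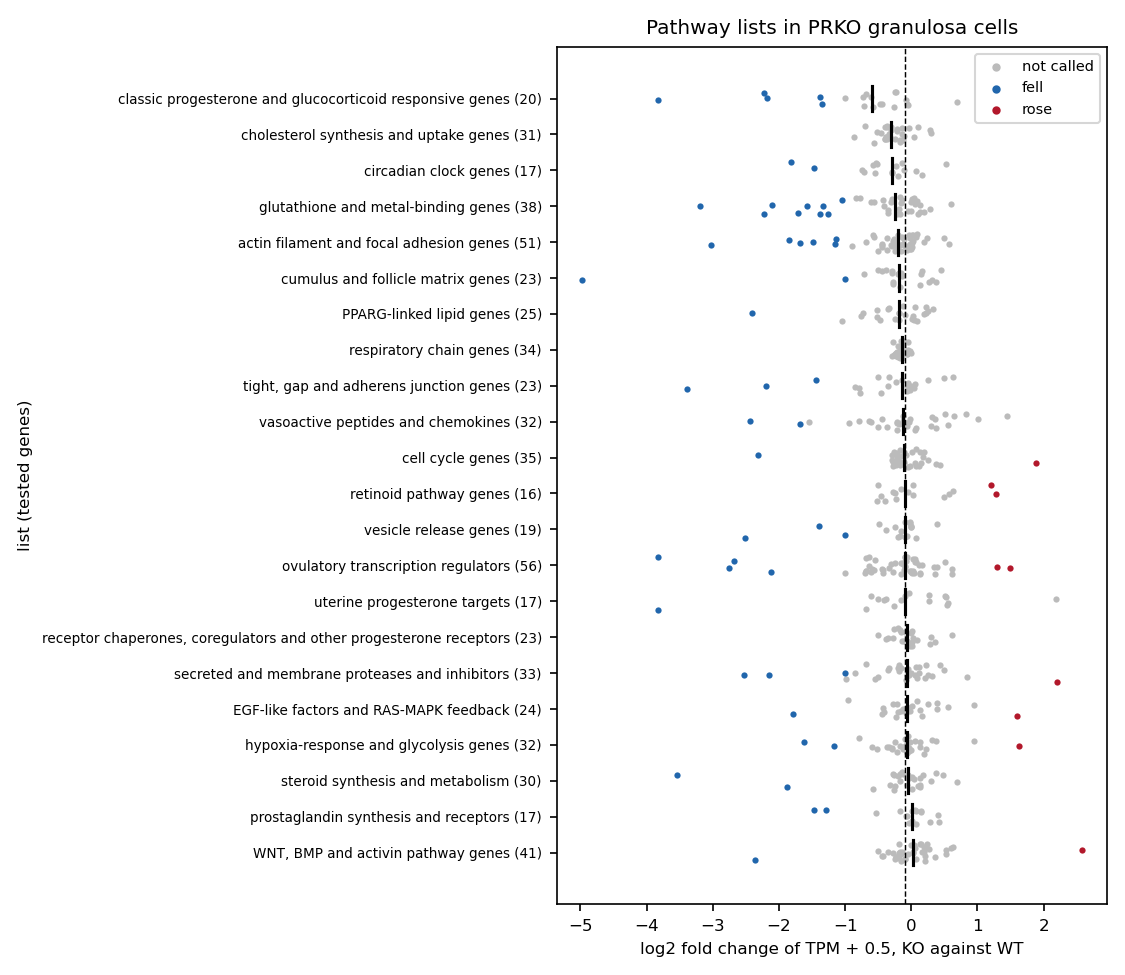
Log2 fold changes of the tested members of 22 pathway lists, with blue points for members that fell, red for members that rose and grey for those not called. Short black lines are list medians and the dashed line is the median of all genes at −0.10. Most lists sit on the dashed line with a few blue points far to the left, and the list of progesterone and glucocorticoid responsive genes has the lowest median at −0.59.

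Metal-binding and glutathione genes held the most falls of any list, 9 of 38 with 0 rises, and their median was −0.25. The members were Mt1, Mt2, Mt3 (−1.25 ± 0.17), Scara5, the cystine transporter Slc7a11 (−2.11 ± 0.19), Gclc, the rate-limiting enzyme of glutathione synthesis (−1.34 ± 0.08), and the glutathione transferases Gstm1 (−1.57 ± 0.10), Gstm2 (−1.71 ± 0.11) and Gsta4 (−1.04 ± 0.14). Gsta4 was not called after rescaling, at −0.94 ± 0.10, and Mt3 was not called as deposited with a replicate block or without any one library. The count was 7 without WT 3 or without KO 1. Gclc stood at 66.2, 66.1 and 74.8 TPM in WT and 28.8, 25.5 and 26.8 TPM in KO. The Gstm genes are close copies of each other, so reads shared among them make their separate values uncertain.

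Of 33 proteases and inhibitors tested 3 fell, Adamts1, Adam8 and Mmp19, and 1 rose, Plau. Adam8, a membrane metalloprotease, stood at 18.7, 18.3 and 20.3 TPM in WT and 2.95, 2.97 and 2.80 TPM in KO. Mmp19 fell by 1.01 on the log2 scale and was not called after rescaling, at −0.94 ± 0.09. Members of this mixed list of proteases and inhibitors therefore moved in both directions. Among 23 matrix genes Lyve1 and versican fell. Vcan stood at 865, 917 and 971 TPM in WT and 471, 404 and 500 TPM in KO (−1.01 ± 0.12), a difference in every library that was just over the limit as deposited and just under it after rescaling, at −0.90 ± 0.10. Without WT 3 the log2 fold change of Vcan was −0.96, and the count of matrix genes was 1.

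Signalling genes gave few calls each. Egfr, the receptor of EGF-like factors, stood at 43.4, 45.3 and 43.7 TPM in WT and 13.9, 11.8 and 11.7 TPM in KO (−1.78 ± 0.08), while its ligand Areg had 0.56 ± 0.27 (limma adjusted p = 0.253). With Rasal1, which rose, it was the only call among 24 genes of EGF-like factors and RAS-MAPK feedback. In the prostaglandin list 2 of 17 fell. Ptgs1, the constitutive cyclooxygenase, stood at 19.5, 18.8 and 25.8 TPM in WT and 9.16, 7.04 and 5.98 TPM in KO (−1.48 ± 0.18), and Slco2a1, the prostaglandin transporter, fell by 1.29 on the log2 scale. Ptgs2, the inducible enzyme, had 0.40 ± 0.23 (limma adjusted p = 0.338). Without WT 3 the count in this list was 1. Of 32 vasoactive peptide and chemokine genes Cxcr4 and Prkg2, a cGMP-dependent kinase (−1.68 ± 0.11), fell, and after rescaling Npr3, the natriuretic clearance receptor, rose by 1.68 ± 0.27. Edn2, the endothelin known to contract the follicle wall, had a mean of 9.02 TPM in WT and 3.01 TPM in KO (−1.54 ± 0.31) but was not called (limma adjusted p = 0.0247).

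Genes of vesicle release and steroid handling followed. Of 19 vesicle genes 3 fell, Scg2, a secretogranin of dense-core granules, Snap25, with 41.6, 39.8 and 34.7 TPM in WT and 16.4, 11.9 and 15.3 TPM in KO (−1.39 ± 0.13), and Stx3, a syntaxin (−1.01 ± 0.14). Snap25 and syntaxins are members of the complex that fuses vesicles with the membrane. In the steroid list of 30 genes Hsd17b11 and Fshr fell. Fshr, the receptor of follicle-stimulating hormone, stood at 42.2, 41.1 and 40.6 TPM in WT and 11.5, 10.6 and 10.6 TPM in KO (−1.87 ± 0.07). Star and Cyp11a1, which start progesterone synthesis, had −0.28 ± 0.16 (limma adjusted p = 0.324) and 0.30 ± 0.12 (limma adjusted p = 0.174). Of 25 lipid genes linked to PPARG 1 fell, Fabp4, a fatty acid carrier. Its WT libraries were uneven at 21.0, 24.4 and 59.5 TPM against 5.98, 5.55 and 5.07 TPM in KO (−2.40 ± 0.36), and without WT 3 the log2 fold change was −1.94. With size factors or a replicate block Fabp4 was not called, which left 0 of the 25.

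Genes of glucose use moved both ways. Pfkfb3 (−1.16 ± 0.11) and Pfkfb4 (−1.62 ± 0.13), the bifunctional enzymes that set fructose 2,6-bisphosphate, fell, and Egln3 rose, among 32 genes of the hypoxia and glycolysis list, whose median was −0.06. Hk2 was called only after rescaling. Of 35 cell cycle genes Cdk6, a G1 kinase, fell from 20.7, 22.4 and 21.2 TPM to 4.28, 3.45 and 4.08 TPM (−2.31 ± 0.09), and Rprm rose. Of 41 WNT, BMP and activin genes Fzd1, a WNT receptor, fell from 48.4, 48.2 and 46.7 TPM to 8.51, 9.23 and 8.89 TPM (−2.36 ± 0.07), and Sfrp2 rose. For both Cdk6 and Fzd1 the libraries of each group were nearly equal.

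Among genes of cell shape and contact a few fell and 0 rose. Of 51 actin and focal adhesion genes 6 fell, Gas7, Pdlim1 (−1.67 ± 0.12), Pdlim4 (−1.84 ± 0.16), Sorbs2 (−1.49 ± 0.10), Zyx, zyxin (−1.15 ± 0.12), and Rnd3, an inhibitor of RhoA signalling (−1.14 ± 0.16). Pdlim1, a PDZ and LIM protein of actin filaments, stood at 138, 141 and 177 TPM in WT and 51.4, 42.7 and 47.1 TPM in KO. Of 23 junction genes 3 fell, Cldn1, Jam3 (−1.44 ± 0.11) and Cgn, cingulin of the tight junction, with 36.5, 37.9 and 35.2 TPM in WT and 8.78, 7.56 and 6.51 TPM in KO (−2.20 ± 0.11). In the retinoid list of 16 genes Cyp26b1, which degrades retinoic acid (1.21 ± 0.12), and Rbp4, the retinol carrier of plasma (1.28 ± 0.11), rose from means of 1.69 and 4.79 TPM. Of 17 circadian clock genes tested 2 fell and 0 rose, and the list median was −0.29. Per2, a repressor of the clock, was among the falls (−1.46 ± 0.15).

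In the lists of the respiratory chain and of cholesterol synthesis and uptake, limma called 0 of 34 and 0 of 31. The respiratory chain genes lay close to the median of all genes, between −0.29 and −0.003. The cholesterol genes had a median of −0.31 and ran from −0.87 to 0.29. The summed level of the cholesterol list was 2437 to 2611 TPM in WT and 1907 to 2421 TPM in KO.

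Cell type markers were read in the same libraries. Of 15 granulosa markers, all detected, 1 was called, Fshr, and their summed level was 2720 to 2975 TPM in WT and 2704 to 3038 TPM in KO. Theca markers summed to 305 to 325 TPM in WT and 213 to 254 TPM in KO, oocyte markers to 324 to 422 TPM and 253 to 300 TPM, and blood endothelium markers to 87.9 to 93.2 TPM and 64.0 to 84.0 TPM, with 0 called in each list by limma. Smooth muscle and pericyte markers, also with 0 called by limma, summed to 67.2 to 76.8 TPM in WT and 57.6 to 62.3 TPM in KO. For the theca, oocyte, blood endothelium and smooth muscle sums the groups did not overlap. They overlapped for stroma fibroblast, leukocyte and surface epithelium sums. Erythroid markers went the other way, with 55.8 to 136 TPM in WT and 185 to 322 TPM in KO, and the groups did not overlap either. As deposited 0 of 4 tested erythroid genes were called, and after rescaling 3 were, Hba-a1, Hba-a2 and Alas2, with rises of 1.64 ± 0.25, 1.51 ± 0.28 and 1.63 ± 0.26. The part of other cells or of blood in the gene changes above was not tested.

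**Figure D4:**
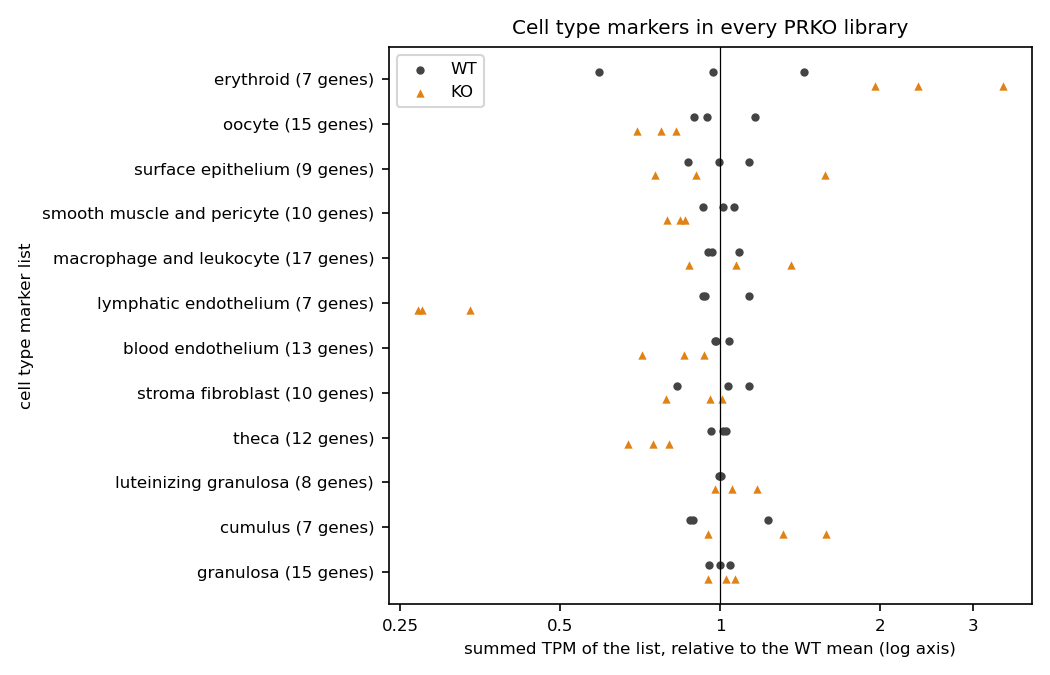
Summed TPM of 12 cell type marker lists in each PRKO library, relative to the WT mean of the list, on a log axis. Circles are WT and triangles KO libraries. Granulosa markers stay near 1 in both groups, erythroid markers are higher in every KO library, and lymphatic markers, through Lyve1, are lower. Theca, oocyte, blood endothelium and smooth muscle markers are also lower in every KO library.

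Of the called protein-coding genes 98 had at least 2 transcripts at a mean of 1 TPM or more in a group, with 260 transcripts in all. In 234 of these the KO libraries did not overlap the WT libraries in the direction of the gene, in 0 did they separate against it, and in 76 genes every such transcript separated with the gene. These genes were chosen as called, so most of their transcripts had to follow. Over all 3992 tested protein-coding genes with as many transcripts the groups did not overlap for 23.0% of transcripts. Some shares within a gene differed between the groups. In Adam8 the transcript with 58.1% of the WT total held 31.9% in KO, and in Pfkfb3 the leading transcript went from 49.1% to 22.9%. The leading transcript of Gas7 held 94.3% in WT and 76.4% in KO. These shares come from the authors' estimates for overlapping transcripts and were not tested.

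Calls were spread over the chromosomes. Chromosome 8 had the highest share of falls, with 23 and 0 rises among 749 genes tested, and chromosome 2 the lowest, with 10 falls and 4 rises among 1086. Called genes were often neighbours, a pattern looked for after the values were seen. Of 549 positions next to a called protein-coding gene 54 held another called one (9.84%, against 2.19% of protein-coding genes tested), and 25 of the 27 neighbouring pairs had both genes called in 1 direction, where falls alone made up 85.8% of called protein-coding genes. Hsd17b11 (chromosome 5, 103989765 to 104021796) lies 23742 bases from Nudt9, and both were among the deepest falls. Mt3, Mt2 and Mt1 lie in that order on chromosome 8, and Myh13, Gas7 and Rcvrn on chromosome 11. Myh13, a myosin heavy chain of muscle, was near 0 in KO, at 0.129, 0.146 and 0.0965 TPM against 2.5, 2.79 and 3.46 TPM in WT. Some of these pairs overlap, namely Gas2l1 and Rasl10a on chromosome 11, Amigo2 and Pced1b on chromosome 15, and Wipf3 and Scrn1 on chromosome 6. In such pairs reads of one gene can count for the other. Other pairs, such as Gstm2 and Gstm1, are of the same gene family, so the share of called neighbours is not one of unrelated genes.

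Other genes close to 0 in one group were few. Ppp1r36 stood at 2.52, 2.52 and 3.67 TPM in WT and 0.169, 0.303 and 0.0811 TPM in KO, and Sult1a1, a phenol sulfotransferase, at 2.88, 3.92 and 3.65 TPM in WT and 0.437, 0.441 and 0.492 TPM in KO. The lncRNA A330015K06Rik showed the same pattern, at 2.17, 2.61 and 2.93 TPM in WT and 0.343, 0.332 and 0.255 TPM in KO. Each was under 0.5 TPM in every KO library.

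The deepest change of all was in Sprr2g, a transcribed pseudogene of the small proline-rich protein family, which was picked out after its values were seen. It stood at 57.6, 62.3 and 160 TPM in WT and 0.464, 0.926 and 0.358 TPM in KO (−6.31 ± 0.40, limma adjusted p = 0.000255). Its neighbour Sprr2f went the other way, with 5.02, 4.24 and 7.48 TPM in WT and 14.1, 26.4 and 19.97 TPM in KO. Sprr2d, which did not reach the filter, had a listed level of 0 throughout WT and levels of 0.823, 2.41 and 2.90 TPM in KO. The family lies in a cluster of near-identical copies on chromosome 3, so how shared reads were divided among the copies is uncertain. In PRAKO, Sprr2g was also low in KO, at 2.43, 1.41 and 2.32 TPM against 213, 169 and 162 TPM in WT, and in PRBKO it was 201, 209 and 236 TPM in KO against 132, 223 and 171 TPM in WT.

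Of the 22 called genes that are not protein coding 15 were miRNA genes, 6 were lncRNAs and 1 was Sprr2g. The lncRNAs all fell, among them Gata6os, which lies beside Gata6, at 52.7, 56.4 and 53.3 TPM in WT and 28.5, 20.8 and 17.8 TPM in KO (−1.28 ± 0.16). Values of miRNA genes were unsteady, since 239 of the 450 tested were listed at 0 in at least 1 library. Of the 450 tested 15 were called, beside 2.14% of all genes tested, and 14 of the 15 were listed at 0 in every library of one group. The filter asks for 1 TPM in 3 libraries, so a gene at 0 in one group passes only where the other group is high throughout. The separation of these 14 was therefore set by the filter. Mir218-1, inside the gene Slit2, had a listed level of 0 throughout WT and levels of 15.8, 12.5 and 13.6 TPM in KO. Slit2 itself had 3.50, 3.27 and 3.09 TPM in WT and 6.79, 5.64 and 5.45 TPM in KO (0.77 ± 0.11) and was not called at the fold limit. Mir6418 was at 4.97, 8.70 and 14.6 TPM in WT and Mir7647 at 9.90, 9.57 and 4.31 TPM, and both were listed at 0 in every KO library. Mir6418 was not called with all 18 libraries in the fit. In the 12 libraries of PRAKO and PRBKO, Mir218-1 ranged from 0 to 4.88 TPM and Mir6418 from 0 to 8.86 TPM, with listed zeros among WT and among KO libraries of each gene. The libraries were made from total RNA and the values do not tell the arms of a hairpin apart. The mature forms of these 3 genes, which had the largest log2 fold changes among called miRNA genes, are shown with the seed, bases 2 to 8, in capitals (RefSeq, GRCm38.p6). No seed was shared between different called miRNA genes.
mmu-miR-218-5p: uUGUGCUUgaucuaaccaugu
mmu-miR-218-1-3p: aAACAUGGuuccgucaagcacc
mmu-miR-6418-5p: uCAGGGGAagggaagagaugc
mmu-miR-6418-3p: aCUGCAACcuccuuucuccagg
mmu-miR-7647-5p: aACUACCAccuccuggccuuuu
mmu-miR-7647-3p: aAGUCCAGgaggugguaguac

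Promoter windows of 300 bases, from 250 before the start of a transcript, were searched on both strands for the receptor element and for sites of factors PGR is known to work with. Of the 260 genes called on both scales 202 had windows, 175 falls with 235 windows and 27 rises with 41. The full element was written as GNACA, 3 free bases and TGTNC, and the single-arm site, which is one side of the palindrome, as AGAACA, so the motifs can overlap. The full element was in 2 of 235 windows of falls (0.851%), in 0 of 41 windows of rises and in 0.295% of 12893 windows of tested protein-coding genes. The single-arm site was in 15.3% of windows of falls, 12.2% of rises and 12.4% of tested genes. An AP-1 site (TGANTCA) was in 8.51%, 14.6% and 5.10% of the same windows, a RUNX site (TGTGGT) in 12.3%, 9.76% and 12.1%, and a GC box (GGGCGG), which SP1 binds, in 56.2%, 43.9% and 61.9%. Over all 32851 windows the shares were 0.475%, 19.0%, 7.81%, 16.8% and 35.7%, in the order full element, single-arm site, AP-1, RUNX and GC box. Windows of the rises are few, so their shares are coarse.

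The 2 falls with the full element were Mt1 and Fyb2. Mt1 is shown because it led the loss of TPM and holds the element, which starts 94 bases before the start site. Gstm1 and Sult1a1 are shown because their windows hold 2 single-arm sites, at 217 and 202 bases before the start site in Gstm1 and at 212 and 34 bases in Sult1a1. The windows are chr8:94178839-94179138 on the plus strand for Mt1, chr3:108017924-108018223 on the minus strand for Gstm1 and chr7:126676369-126676668 on the minus strand for Sult1a1 (RefSeq, GRCm38.p6). Capitals mark the full element in Mt1 and the single-arm sites in the others, and a match is a description of letters, not of binding.
Mt1: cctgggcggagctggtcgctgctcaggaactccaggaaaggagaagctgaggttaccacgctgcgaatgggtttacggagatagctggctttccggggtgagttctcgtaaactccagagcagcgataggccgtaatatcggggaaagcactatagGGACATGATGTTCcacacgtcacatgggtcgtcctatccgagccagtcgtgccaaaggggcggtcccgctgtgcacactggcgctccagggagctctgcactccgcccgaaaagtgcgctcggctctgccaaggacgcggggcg
Gstm1: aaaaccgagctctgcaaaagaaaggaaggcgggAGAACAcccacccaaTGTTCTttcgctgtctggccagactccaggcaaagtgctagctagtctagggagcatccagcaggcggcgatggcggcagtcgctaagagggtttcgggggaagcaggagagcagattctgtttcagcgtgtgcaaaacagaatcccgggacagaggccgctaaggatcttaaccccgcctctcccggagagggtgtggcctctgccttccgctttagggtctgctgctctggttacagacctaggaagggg
Sult1a1: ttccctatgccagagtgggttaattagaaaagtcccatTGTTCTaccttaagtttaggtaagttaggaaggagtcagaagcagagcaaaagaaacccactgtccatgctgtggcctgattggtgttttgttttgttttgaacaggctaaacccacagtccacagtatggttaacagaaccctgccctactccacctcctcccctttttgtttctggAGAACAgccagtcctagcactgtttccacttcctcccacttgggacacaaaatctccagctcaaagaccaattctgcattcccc

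The KO effect in PRKO was then compared with that in PRAKO and PRBKO, in a fit of all 18 libraries on the rescaled values, each strain having its own WT libraries. Strain differences were called under the limits used for genes, with the fold limit of 1 placed on the gap between the log2 effects. Of 13165 protein-coding genes tested the difference between PRKO and PRAKO was called in 46 (0.349%), with PRKO lower in 26 and higher in 20. Between PRKO and PRBKO it was called in 316 (2.4%), with PRKO lower in 244 and higher in 72. A gene without a call can still differ by less. Against PRAKO, Gas7 had −0.72 (limma adjusted p = 0.0029) and Mt2 had 0.80 (limma adjusted p = 0.0022). On TPM as deposited the counts were 76, with 70 lower, and 559, with 539 lower, so these counts depend on the scale. Without PRAKO KO 2, or without PRAKO KO 4, the difference from PRAKO was called in 29. Over the 221 genes that fell in PRKO on both scales PRKO had a median effect of −1.54, PRAKO of −1.33 and PRBKO of −0.05. Of them 160 had an effect of −1 or lower in PRAKO and 7 in PRBKO, and the difference from PRKO was called for 13 in PRAKO and for 184 in PRBKO. Over the 39 rises the medians were 1.53, 1.22 and 0.29, with the difference called for 5 in PRAKO and 25 in PRBKO. The genes were chosen for their PRKO effect, so a smaller effect in other strains is partly set by that choice.

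**Figure D5:**
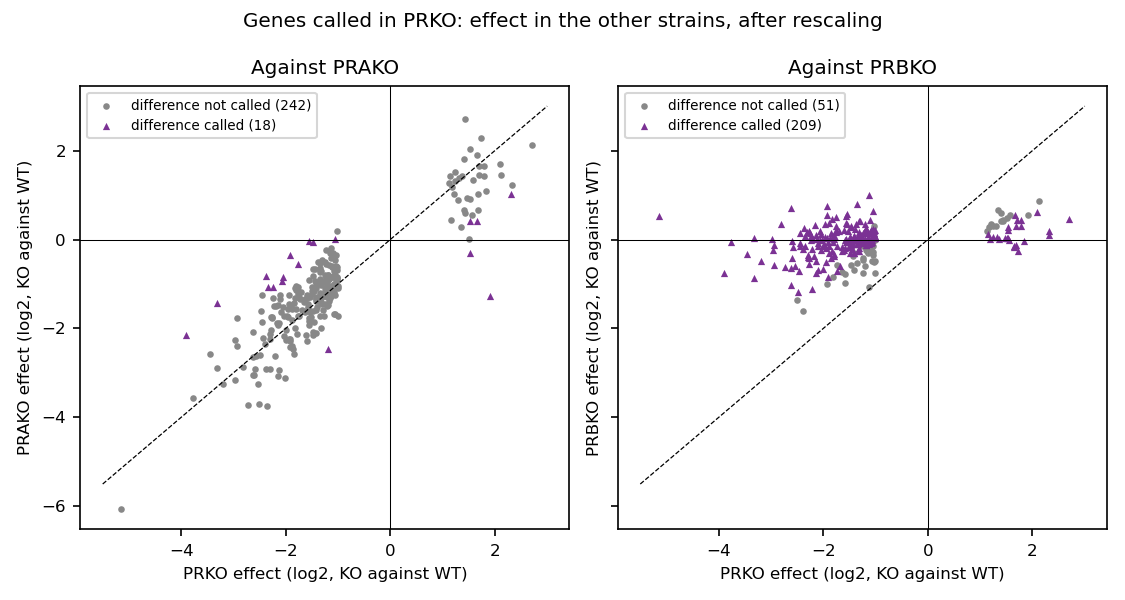
Log2 effect in PRKO against that in PRAKO (left) and PRBKO (right) for the 260 genes called on both scales in PRKO, after rescaling. Purple triangles are genes with a called difference between the strains, which had to be at least 1 in size. Grey circles are the rest, some with smaller differences that passed the p limit, and the dashed line marks equal effects. Most genes lie along that line for PRAKO, where 18 differences were called. For PRBKO most lie near an effect of 0, and 209 differences were called.

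Genes with a called difference from PRAKO included some of the deepest falls. Cxcr4 had an effect of −2.34 in PRKO, −1.06 in PRAKO and 0.09 in PRBKO, and its difference between PRKO and PRAKO was −1.28 ± 0.10 (limma adjusted p = 3.37e-06). Scara5 had −3.32 in PRKO and −1.43 in PRAKO, a difference of −1.89 ± 0.21. The WT libraries differed too, with Scara5 at 17.1 to 18.4 TPM in PRKO WT, 37.1 to 45.5 TPM in PRAKO WT and 46.5 to 62.9 TPM in PRBKO WT. Slco2a1 went further in PRAKO than in PRKO, at −2.47 against −1.20.

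Gnao1, a G protein subunit, fell in PRKO, from 47.1, 47.6 and 46.3 TPM to 18.7, 13.2 and 12.8 TPM, and its effect was −0.04 in PRAKO, where WT libraries held 25.3 to 31.6 TPM. Dok6, an adaptor of receptor tyrosine kinases, rose in PRKO from 0.795, 0.968 and 1.51 TPM to 2.79, 3.79 and 3.09 TPM, whereas both groups of PRAKO held 4.76 to 5.70 TPM. For Cxcr4, Gnao1, Dok6, Scara5 and Lhcgr the PRKO WT libraries were outside the range of the WT libraries of the other strains, with Cxcr4 at 128 to 139 TPM in PRKO WT and 178 to 221 TPM in the others. Lhcgr, the receptor of luteinizing hormone and hCG, had −0.10 ± 0.10 in PRKO and 0.90 in PRAKO. B3galnt1 and Jph2, a junctophilin, were also lower in PRKO by difference, at −1.09 ± 0.10 and −1.21 ± 0.11. Their effects were −0.60 and −0.63 in PRKO, under the fold limit, and 0.50 and 0.58 in PRAKO.

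The differences from PRBKO with the smallest p were Epas1, Gas7, Cxcr4, Gas2l1, Zfp13, Jcad, Zcchc24 and Tbc1d8. In each the effect was −1.77 or lower in PRKO and between −0.11 and 0.75 in PRBKO. Epas1 had −2.60 in PRKO, −3.04 in PRAKO and −0.03 in PRBKO, and Jcad, an endothelial junction protein, −2.31, −2.92 and 0.16. Zcchc24 had 24.5, 24.3 and 23.7 TPM in PRKO WT and 5.56, 5.74 and 6.01 TPM in PRKO KO. Zfp13 had 35.2, 36.4 and 40.3 TPM in WT and 10.8, 9.94 and 9.33 TPM in KO. The PRBKO KO libraries held more protein-coding TPM than any other group, at 50.9% to 61.2%, and the part of that in these differences was not tested.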

How the data were processed

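RNA of granulosa cells was measured in 3 KO and 3 WT libraries of the PRKO strain, grouped by the sample labels. The deposited values were TPM per transcript, each column summing to 1000000 over 42251 transcripts. The authors named FastQC for read quality, AdapterRemoval for trimming and Salmon for the estimates. The methods name a GENCODE transcriptome of GRCm38.p6, but the deposited transcripts are those of RefSeq. No version of these programs is given in the sources used here. TPM keeps no depth, so a rise of an abundant RNA lowers all others.

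Transcripts were matched to RefSeq genes (42072 matched, 179 not) and TPM was added up by symbol to 24963 genes, of which 20711 are protein coding. Genes with at least 1 TPM in 3 or more of the 6 libraries were tested with limma on log2(TPM + 0.5), a trended prior and Benjamini-Hochberg adjustment, two-sided. Fold changes on this scale understate changes of low genes. The study's voom weights need counts and were not used. Values rescaled to protein-coding totals were fitted the same way. The KO effects of strains were compared by contrasts over all 18 libraries. No source says that libraries came from separate cohorts, so p-values measure the spread between these pools.

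Numbers shared by KO and WT libraries did not pair them. The correlation of deviations from the group means was 0.148, −0.150 and 0.079 for numbers 1, 2 and 3. Pearson r within a group was at least 0.970, and no libraries were identical.

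The comparison, 22 pathway lists and 12 marker lists were chosen with earlier results of these data known. The named genes were Pgr, the 20 largest falls and 15 largest rises among protein-coding genes called on both scales whose higher group mean was 5 TPM or more, the 10 and 5 with the largest TPM loss and gain, called list members, 8 genes per strain difference, 4 per scale called on that scale only, and genes under 0.5 TPM in one group that averaged 2 TPM or more in the other. Some genes that these rules select are not reported here. Alternatives were other pseudocounts, filters, scalings, priors, weights, thresholds and blocks, and each library left out. The fits were tested on simulated data. Fits ran in limma 3.58.1 under R 4.3.3, and tables and plots in Python 3.11.15, pandas 2.3.3 and matplotlib 3.10.9.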

Additional observations from a re-analysis of the deposited data

Results flagged for a closer look

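The KO effect differed between PRKO and another strain, by a contrast in the fit of all 18 libraries, for these genes named by smallest p. Values are the log2 effect in PRKO minus that in the other strain after rescaling. Against PRAKO the difference was −1.28 for Cxcr4, −1.89 for Scara5, −1.52 for Gnao1, −1.21 for Jph2, −1.09 for B3galnt1 and −1.01 for Lhcgr. It was 1.83 for Dok6, which rose in PRKO, and 1.27 for Slco2a1, whose fall was smaller in PRKO than in PRAKO. Against PRBKO it was −2.57 for Epas1, −2.98 for Gas7, −2.43 for Cxcr4, −2.04 for Gas2l1, −1.84 for Zfp13, −2.47 for Jcad, −2.68 for Zcchc24 and −2.83 for Tbc1d8. Strain, allele and the preparation of each table cannot be told apart in these differences. Groups of 3 libraries are too small for the check of single libraries that stand apart.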

How the results depend on the processing

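The count of 297 called genes stayed within 1.5 times under all alternatives tried except array weights, with 449, and an adjusted p of at most 0.05 with no fold limit, with 1385. After rescaling, 299 genes became 197 with a filter at a mean of 5 TPM, where fewer genes were tested, and 1501 with the looser threshold. The difference from PRAKO, 46 genes, became 76 on TPM as deposited, and that from PRBKO, 316 genes, became 559 on TPM as deposited and 206 with the filter at 5 TPM. Leaving out one library at a time gave 223 to 289 called genes as deposited, 254 to 308 after rescaling, 29 to 65 for PRAKO and 301 to 347 for PRBKO. Both counts of 29 came without PRAKO KO 2 or PRAKO KO 4. The cause was not tested. With median-of-ratios size factors 269 genes were called, 79.9% of them falls.

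A replicate block gave 258, 302, 49 and 321 genes for the 4 counts in the same order, although the numbers did not pair the libraries. A block for the sides of the second component, chosen after seeing the data, gave 312 as deposited, of which 286 were among the 297, and 309 after rescaling. Leaving out one library at a time moved Pgr between −0.15 and 0.19 as deposited and between −0.085 and 0.29 after rescaling, with the sign turned without WT 3 (−0.04 and −0.01) and without KO 3 (the lowest values), and it was called in none of these fits. Among named genes as deposited the calls of Stx3 and Mir500 were lost under 11 alternatives each, and those of Gsta4 and Sprr2f under 10 each.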
